A study of Mus musculus with 18 samples.

Results

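Prap1, Ltf and Scgb3a1 encode 3 secreted proteins, and their RNA was followed through uteri that carried or lacked Tsc2 under different supplies of ovarian hormone. The genes were taken by symbol from the deposited table, where each of the 3 names stood once among 25791 genes. All 3 passed the filter on low values, at least 1 FPKM in at least 3 libraries, where FPKM is a read density scaled to transcript length and library size. The set was chosen by measured values, with earlier results of these data in view. Those results had Prap1 lower in Tsc2-null than in wild type intact uteri and Scgb3a1 lower in Tsc2-null than in wild type uteri under estradiol, and Ltf joined them as another secretory product, so differences between the genotypes in those states are given below as descriptions without a test.

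Messenger RNA was sequenced from uterine cross sections of mice on a mixed 129Sv and C57BL/6 background, all 12 weeks old. Uterine-specific Tsc2-null mice (KO) were set against wild type mice (WT), and each genotype was studied in 3 hormone states. In the E2 state the ovaries had been removed at 4 weeks and a pellet of 0.5 mg 17β-estradiol, with release over 90 days, was given for 8 weeks. Intact mice kept their ovaries, and ovx mice had lost theirs at 4 weeks and got no estradiol. With 3 libraries to a group, the 6 groups made 18 libraries. The labels name neither the Cre line behind the deletion nor the estrous stage of the intact mice. Separate animals behind the libraries are not stated either, and p-values therefore measure the spread between these samples, which may be technical.

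The uterine lumen is lined by a secretory epithelium that answers to estradiol through the estrogen receptor. Ltf encodes lactoferrin, an iron-binding antimicrobial glycoprotein that is a classic product of the estrogen-stimulated mouse uterine epithelium and is also stored in the secondary granules of neutrophils. Prap1 encodes a proline-rich acidic protein, made by the epithelium of the mouse uterus and of the gut. Scgb3a1 encodes a secretoglobin, a member of a family of small secreted proteins best known from airway secretory cells. TSC2 restrains the growth-promoting kinase complex mTORC1, which is more active where TSC2 is lost.

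The sequences before the 3 transcription starts are shown because the estrogen receptor acts through DNA elements built from the half-site GGTCA. They are the 250 bases before each start, 5′ to 3′ on the plus strand, from RefSeq on GRCm38.p6, where all 3 genes were matched. Capitals mark GGTCA, or TGACC, which is the same letters on the other strand.
Prap1: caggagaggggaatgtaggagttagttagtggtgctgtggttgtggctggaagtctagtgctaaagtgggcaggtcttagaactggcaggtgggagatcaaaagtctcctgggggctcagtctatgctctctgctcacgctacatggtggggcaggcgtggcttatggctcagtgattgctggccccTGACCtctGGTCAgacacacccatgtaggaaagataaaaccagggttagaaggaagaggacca
Ltf: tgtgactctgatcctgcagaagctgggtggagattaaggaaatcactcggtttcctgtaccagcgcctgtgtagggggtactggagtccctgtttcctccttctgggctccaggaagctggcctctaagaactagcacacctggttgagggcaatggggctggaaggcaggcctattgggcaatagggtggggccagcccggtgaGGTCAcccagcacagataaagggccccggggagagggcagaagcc
Scgb3a1: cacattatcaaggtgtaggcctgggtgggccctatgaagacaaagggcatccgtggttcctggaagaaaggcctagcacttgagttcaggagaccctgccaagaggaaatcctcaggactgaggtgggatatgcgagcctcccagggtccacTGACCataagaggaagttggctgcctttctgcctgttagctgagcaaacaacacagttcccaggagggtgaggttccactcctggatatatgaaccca
The windows are chr7:140093146-140093395 for Prap1, chr9:111019042-111019291 for Ltf and chr11:49663345-49663594 for Scgb3a1. Each held GGTCA on at least 1 strand, as did 35.2% of 32851 windows of the same length in the RefSeq table. In Prap1 a copy on each strand, from 63 to 51 bases before the start, made up TGACCNNNGGTCA. That arrangement occurred in 0.0457% of the windows on either strand, and it was searched for after the Prap1 sequence had been seen. Ltf had GGTCA from 45 to 41 bases before its start on the plus strand, and Scgb3a1 had it from 98 to 94 bases on the minus strand. The palindrome GGTCANNNTGACC, present in 0.0639% of the windows, and TATAAA, present in 12.4%, were in none of the 3 windows on either strand. A match of letters is a description of the sequence and shows no binding.

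The libraries differed in ways that touch the results. Tsc2 stood at 1.62 to 1.98 FPKM in KO intact and 2.04 to 2.51 FPKM in WT intact libraries, without overlap. It stood at 1.75 to 2.42 FPKM in KO E2 and 2.38 to 2.73 FPKM in WT E2 libraries, and at 2.39 to 3.33 FPKM in KO ovx and 3.17 to 3.49 FPKM in WT ovx libraries. The KO median was the lower one in all 3 states, with overlap under E2 and in ovx uteri. The sum of FPKM over all genes ran from 216032 to 591668, and the read depth of the libraries is unknown. The steps between the lowest values were used to put the libraries into 4 sets, which the labels do not name. The number of sets was fixed by the procedure. The largest share of low values at one ratio was 3.56 to 19.6% for pairs within a set. It was 1.78 to 3.98% for pairs of different sets alike in having or lacking ovaries. These ranges overlapped, so the sets are uncertain. Intact libraries made up sets 1 and 2 and the ovx and E2 libraries sets 3 and 4, so that an effect of the ovaries and an effect of the sets cannot be told apart. KO E2 replicate 2 and KO ovx replicate 4 stood apart from their groups: 15 epithelial genes summed to 1075 FPKM in KO E2 replicate 2, against 154 and 458 FPKM in KO E2 replicates 1 and 3, and to 768 FPKM in KO ovx replicate 4, against 350.1 and 246 FPKM in KO ovx replicates 1 and 2. WT libraries varied too. In WT intact replicate 4 the epithelial sum was 1936 FPKM, against 524 and 891 FPKM in WT intact replicates 1 and 2. A list of estrogen response genes summed to 15786 FPKM in WT intact replicate 4, against 405 and 995 FPKM in WT intact replicates 1 and 2.

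Prap1 had its highest group median in the intact WT uterus. It stood at 2.33, 2.25 and 5.73 FPKM in KO intact replicates 1, 3 and 4. In WT intact replicates 1, 2 and 4 it stood at 44.6, 632 and 688 FPKM. The KO and WT intact libraries did not overlap, and the lowest WT library was WT intact replicate 1. After removal of the ovaries the order of the genotypes was the other way round. Prap1 had 5.26, 3.38 and 23.0 FPKM in KO ovx replicates 1, 2 and 4, against 0.207, 0.319 and 0.228 FPKM in WT ovx replicates 1, 2 and 3. All 3 KO ovx libraries lay above all 3 WT ovx libraries, with KO ovx replicate 4, a library apart from its group, the highest. Under estradiol it had 0.284, 24.4 and 0.241 FPKM in KO E2 replicates 1, 2 and 3, against 85.2, 20.7 and 9.11 FPKM in WT E2 replicates 1, 2 and 5. KO and WT overlapped there through KO E2 replicate 2 alone, and the other KO E2 libraries were at the level of WT ovx. Ordered by their medians, the groups ran WT intact, WT E2, KO ovx, KO intact, KO E2 and WT ovx, and the ranges of each pair of neighbours overlapped.

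Scgb3a1 had its highest level in the estradiol-treated WT uterus. It had 3.03, 80.1 and 1.08 FPKM in KO E2 replicates 1, 2 and 3, against 301, 981 and 1472 FPKM in WT E2 replicates 1, 2 and 5. Every WT E2 library lay above every KO E2 library, and KO E2 replicate 2 was again the highest of its group. Outside the E2 state the gene was low in both genotypes. Intact uteri had 0.0719, 0.254 and 0.254 FPKM in KO replicates 1, 3 and 4, against 0, 0 and 0.414 FPKM in WT replicates 1, 2 and 4, where 0 is the value listed. Ovx uteri had 0.417, 0.628 and 2.69 FPKM in KO replicates 1, 2 and 4, against 0.174, 0.264 and 1.83 FPKM in WT replicates 1, 2 and 3. The genotypes overlapped in both of these states. By medians the order was WT E2, KO E2, KO ovx, WT ovx, KO intact and WT intact. WT E2 was separate from KO E2, and all other neighbours overlapped.

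Ltf needs a caution before its values. Its row and that of LOC100504625 share one position in the table, chromosome 9, 110921795 to 110945270 in the table's own coordinates, which are on another build than the sequences above. Both rows were listed at 0 in WT E2 replicates 1 and 5, and no other row of the table was at 0 in exactly these 2 libraries with at least 1 FPKM in the other 16. In those 16 libraries LOC100504625 ran at 2.16 to 7.04 times the level of Ltf, with a median of 2.92, so reads may have been divided between the rows and the level of Ltf is uncertain. The Ltf values of those WT E2 libraries are therefore given only as listed at 0. Fits are given with these zeros at face value and, as an alternative chosen after the data were seen, with Ltf missing in them.

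**Figure D1:**
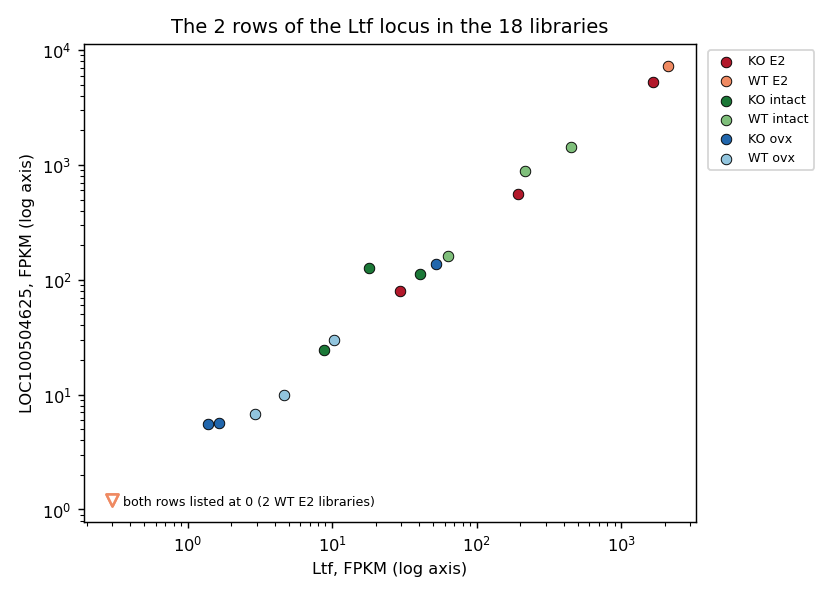
FPKM of LOC100504625 (vertical, log axis) against FPKM of Ltf (horizontal, log axis), a point for each library, coloured by group. In 16 libraries the rows moved together, at a ratio of 2.16 to 7.04, and in 2 WT E2 libraries, drawn as an open triangle at the lower left, both were listed at 0.

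The highest single Ltf value of each genotype came from an E2 library. It had 192, 1665 and 29.6 FPKM in KO E2 replicates 1, 2 and 3. WT E2 replicate 2 had 2103 FPKM, and WT E2 replicates 1 and 5 were listed at 0. The KO E2 libraries thus differed among themselves, with KO E2 replicate 2 close to the WT E2 library that had a value. In intact uteri Ltf stood at 8.81, 18.1 and 40.5 FPKM in KO replicates 1, 3 and 4, against 63.7, 217 and 448 FPKM in WT replicates 1, 2 and 4. The intact genotypes did not overlap. In ovx uteri it stood at 1.65, 1.39 and 52.7 FPKM in KO replicates 1, 2 and 4, against 4.63, 2.93 and 10.3 FPKM in WT replicates 1, 2 and 3. There the genotypes overlapped, since KO ovx replicate 4 was above and the other KO libraries below every WT library. By the medians of values as listed the order was WT intact, KO E2, KO intact, WT ovx, KO ovx and WT E2, all neighbours overlapping, and the last place is that of the listed zeros.

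**Figure D2:**
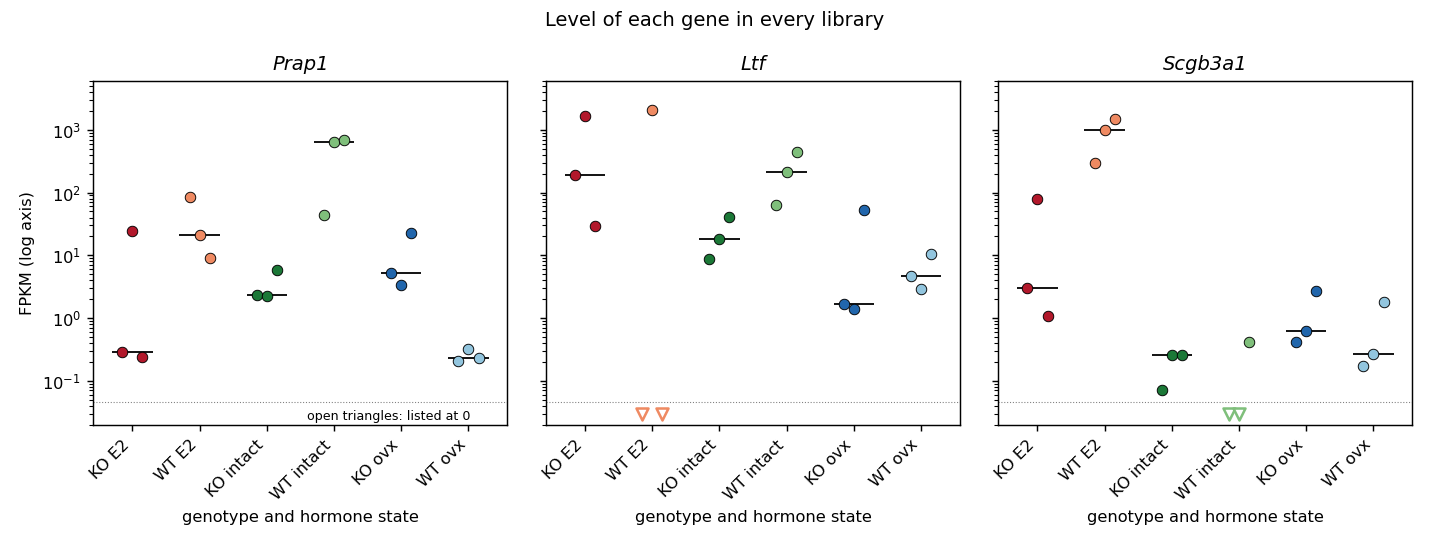
FPKM of Prap1, Ltf and Scgb3a1 (vertical, log axis) in each of the 18 libraries, by genotype and hormone state. Points are libraries, bars are group medians (none for a group with a listed zero), and open triangles are values listed at 0. Prap1 had its highest median in WT intact libraries (44.6 to 688 FPKM) and Scgb3a1 in WT E2 libraries (301 to 1472 FPKM).

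The first comparison asked how the genes answered to estradiol. In WT uteri Scgb3a1 rose with E2 by 8.88 ± 0.97 (log2 difference of FPKM + 1 ± SE, 3 libraries against 3, limma adjusted p = 3.35e-05), and Prap1 rose by 4.41 ± 1.18 (adjusted p = 0.00728). Both genes were higher in every WT E2 library than in every WT ovx library. In that comparison 32.3% of the 13898 genes tested passed as higher and 43.5% had all 3 E2 libraries above all 3 ovx libraries. The rise of Scgb3a1 and that of Prap1 were called under each of 13 alternatives, with adjusted p up to 0.000451 for Scgb3a1 and up to 0.0365 for Prap1. These WT E2 libraries also entered the comparison of genotypes that chose Scgb3a1, so its p-value is not independent of that choice. Within sets 3 and 4 the differences were 9.66 and 8.75 for Scgb3a1 and 3.05 and 5.04 for Prap1. Ltf gave 1.02 ± 2.29 (adjusted p = 0.733) with the listed zeros at face value and 8.38 ± 1.95 (adjusted p = 0.00392) with Ltf missing in those libraries, which leaves 1 WT E2 library against 3 and assumes that it varies like the other groups. Without WT E2 replicate 2, the only library of the group with a value, the difference at face value was -2.66.

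In KO uteri none of the 3 genes passed the test for E2 against ovx. Scgb3a1 was chosen for being lower in these KO E2 than in WT E2 libraries, so its missing call is not independent of that choice. Prap1 differed by -1.34 ± 1.18 (adjusted p = 0.425), Ltf by 4.94 ± 2.29 (adjusted p = 0.123) and Scgb3a1 by 2.11 ± 0.97 (adjusted p = 0.12), while 27.1% of all genes tested passed in either direction. Single libraries weighed on these values. Without KO E2 replicate 2 and KO ovx replicate 4 the differences were -2.05 for Prap1 (adjusted p = 0.168), 4.93 for Ltf (adjusted p = 0.169) and 0.93 for Scgb3a1 (adjusted p = 0.246). Without KO E2 replicate 3 Scgb3a1 passed, at 3.15 (adjusted p = 0.0256), and without KO E2 replicate 2 it was 0.51 (adjusted p = 0.553). Taking Ltf as missing in the WT E2 libraries with listed zeros lowered the SE, which all groups share, and the KO difference then passed at 4.94 ± 1.38 (adjusted p = 0.0187). That call ended without KO ovx replicate 1 (adjusted p = 0.0803), KO ovx replicate 2 (adjusted p = 0.0802) or KO E2 replicate 2 (adjusted p = 0.0670). Within set 3, with 1 KO E2 and 3 KO ovx libraries, the differences were -2.81 for Prap1, 2.13 for Ltf and 0.03 for Scgb3a1. The E2 response of KO minus that of WT was -5.75 for Prap1 and -6.77 for Scgb3a1 on the log2 scale, which is given without a test because it holds the difference that chose Scgb3a1.

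The second comparison set intact against ovx libraries, where an effect of the ovaries and an effect of the sets cannot be told apart. Hist2h2aa2, Hist2h2ac and Scand1, for example, were listed at 0 in all 6 intact libraries and at 5.285 FPKM or more in every other library. In WT uteri Prap1 was higher in intact than in ovx libraries by 7.76 ± 1.18 (adjusted p = 0.000252), where 29.9% of all genes tested passed as higher, and it was called under each of 12 alternatives, with adjusted p up to 0.00516. The WT intact libraries also entered the comparison that chose Prap1, so this p-value is not independent of that choice. Ltf stood 4.88 ± 2.29 higher in WT intact than in WT ovx libraries without passing (adjusted p = 0.0947), although its libraries did not overlap, which held for 40% of all genes in that direction. It passed with Ltf missing at the listed zeros, at 4.88 ± 1.38 (adjusted p = 0.0126), and with only the WT intact and WT ovx libraries in the fit (adjusted p = 0.00693). The call with missing values ended without WT intact replicate 4 (adjusted p = 0.0522). Scgb3a1 gave -0.52 ± 0.97 (adjusted p = 0.688).

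KO uteri showed no call for intact against ovx in any of the 3 genes, where 15.9% of all genes tested passed in either direction. The difference was -1.06 ± 1.18 for Prap1 (adjusted p = 0.586), 1.51 ± 2.29 for Ltf (adjusted p = 0.701) and -0.78 ± 0.97 for Scgb3a1 (adjusted p = 0.630). Prap1 was chosen for being lower in KO intact than in WT intact libraries, so its missing call is not independent of that choice. For Scgb3a1 every KO intact library lay below every KO ovx library, as was so in that direction for 17.9% of the genes tested. Without KO ovx replicate 4 the differences were -0.33 for Prap1, 2.98 for Ltf and -0.35 for Scgb3a1. The difference of intact from ovx in KO minus that in WT was -8.82 for Prap1 and -3.37 for Ltf, again without a test.

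The genotypes themselves were compared in each state. In ovx uteri Prap1 was 2.80 ± 1.18 higher in KO than in WT on the log2 scale, without passing over all genes (adjusted p = 0.187). Its libraries did not overlap, as was the case in that direction for 26.8% of the genes tested, while 4.63% passed as higher. With only the ovx libraries in the fit the same difference passed (adjusted p = 0.0485). Without KO ovx replicate 4 it was 2.07 (adjusted p = 0.567). Within set 3, which held 3 KO ovx and 2 WT ovx libraries, it was 2.84. Ltf and Scgb3a1 gave 0.15 ± 2.29 (adjusted p = 0.988) and 0.34 ± 0.97 (adjusted p = 0.903) in ovx uteri, and without KO ovx replicate 4 both were below 0, at -1.33 for Ltf and -0.086 for Scgb3a1.

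For intact and E2 uteri the values are descriptions. Intact KO uteri averaged 3.44 ± 1.99 FPKM of Prap1 and intact WT uteri 455 ± 356 FPKM (SD, n = 3 each), a log2 difference of -6.02, and the difference was -5.23 within set 1 and -7.60 within set 2. For Ltf the averages were 22.5 ± 16.3 FPKM in KO intact and 243 ± 194 FPKM in WT intact uteri (SD, n = 3 each), a log2 difference of -3.22, with -3.08 and -3.51 within sets 1 and 2. Libraries of 12.5% of all genes tested were lower in KO intact than in WT intact without overlap, and 0.993% of genes were called lower. Because the comparison chose the genes, nothing is read from these shares. Under E2 Scgb3a1 averaged 28.1 ± 45.1 FPKM in KO and 918 ± 588 FPKM in WT uteri (SD, n = 3 each), a log2 difference of -6.43, which was -9.46 in set 3 (1 library of each genotype) and -4.91 in set 4 (2 of each). In that state 12.1% of the genes tested were lower in KO than in WT without overlap and 3.58% were called lower, from which again nothing is read. Prap1 under E2 averaged 8.32 ± 13.96 FPKM in KO and 38.3 ± 41.0 FPKM in WT uteri (SD, n = 3 each), a log2 difference of -2.96, with -3.03 and -2.92 within sets 3 and 4. Without KO E2 replicate 2 the differences were -4.40 for Prap1 and -8.03 for Scgb3a1. For Ltf under E2 the sign turned on the listed zeros, with a difference of 4.06 at face value and of -3.30 with Ltf missing in those libraries.

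**Figure D3:**
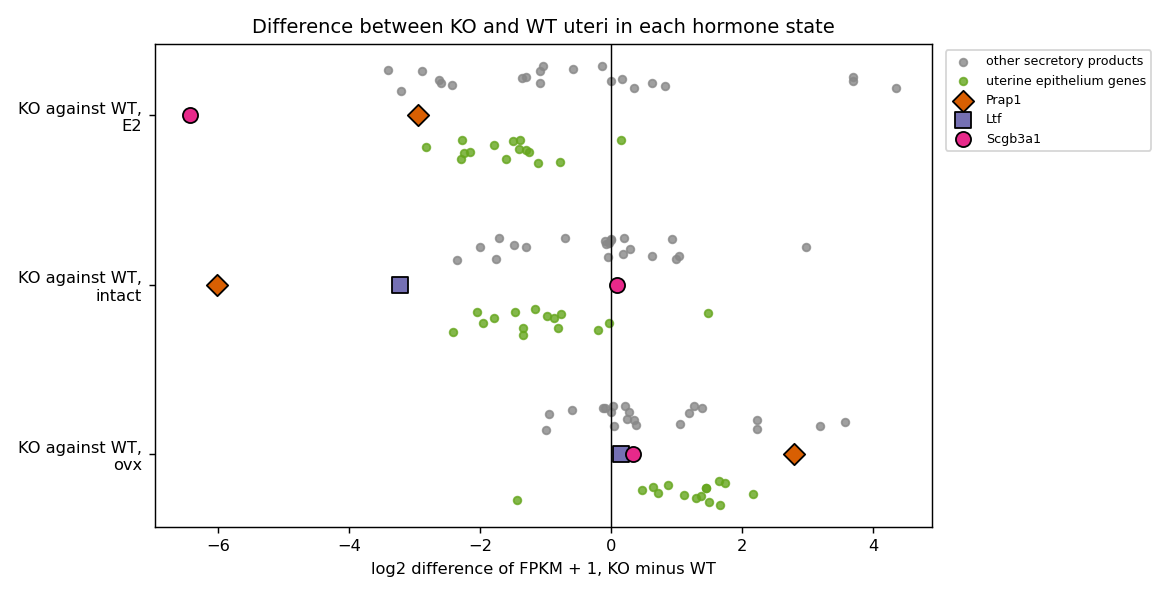
Log2 difference of FPKM + 1 between KO and WT uteri (horizontal) in the E2, intact and ovx states. Large symbols are Prap1, Ltf and Scgb3a1, grey points are other secretory products and green points are epithelial genes; Ltf under E2 is left out because of its listed zeros. Prap1 lay at -2.96 under E2 and -6.02 in intact uteri but at 2.80 in ovx uteri, and Scgb3a1 lay at -6.43 under E2 and near 0 in the other states.

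Epithelial genes moved between the groups as well. The list of 15 included the adhesion gene Epcam, the keratins Krt7, Krt8, Krt18 and Krt19, and the transcription factor gene Elf3, and none of them was at 0 throughout a group. Summed, they reached 154 to 1075 FPKM in KO E2 and 1013 to 1696 FPKM in WT E2 libraries. In intact uteri the sums were 278 to 539 FPKM for KO and 524 to 1936 FPKM for WT, and in ovx uteri 246 to 768 FPKM for KO and 97.1 to 187 FPKM for WT. The list thus stood lower in KO than in WT where Prap1 did and higher where Prap1 did, with overlap of the sums in the E2 and intact states. In these whole-tissue samples fewer epithelial cells and less RNA per cell cannot be told apart, and the place of the 3 RNAs within the tissue was not measured.

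Of the 15 epithelial genes, 12 rose and 0 fell with E2 in WT uteri (10 to 12 rose without each library in turn), with a median log2 difference of 2.59 against 0.24 over all genes. Krt7 averaged 214 FPKM in WT E2 and 6.93 FPKM in WT ovx uteri. In KO uteri 0 rose and 1 fell with E2, the tight junction gene Cldn3, with a median of -0.07 against 0.07 over all genes, and without each library in turn 0 to 1 rose and 0 to 4 fell. Between KO and WT under E2 the counts were 0 higher and 4 lower, among them the adhesion gene Cdh1, with a median of -1.49 against -0.05 over all genes. That count was 9 lower without KO E2 replicate 2 and 0 without KO E2 replicate 1 or 3, without WT E2 replicate 1 or 5, or with only the E2 libraries in the fit. For intact against ovx 12 of 15 were higher and 0 lower in WT uteri, with a median of 2.51 against 0.21 over all genes, and 0 were higher and 1 lower in KO uteri, with a median of 0.43 against 0.09 (3 higher without KO E2 replicate 2 and KO ovx replicate 4). In ovx uteri 1 was higher in KO than in WT, the tight junction gene Cldn4, with a list median of 1.37 against 0.09, and its call ended without any ovx library but KO ovx replicate 2 (adjusted p = 0.0792 to 0.156). Between KO and WT 0 were called in intact uteri, with a median of -1.16 against -0.04. The part of epithelial content in the levels of the 3 genes was not tested.

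The levels were also expressed per 100 FPKM of the summed epithelial genes, as a description that does not test the part of epithelial content. Prap1 had 0.450 to 1.06 FPKM in KO intact and 8.52 to 70.9 FPKM in WT intact libraries per 100 epithelial FPKM. In ovx uteri the same ratio was 1.37 to 3.00 in KO and 0.122 to 0.214 in WT libraries. For Scgb3a1 it was 0.237 to 7.45 in KO E2 and 22.2 to 96.9 in WT E2 libraries. The first and the last of these pairs are the values that chose the genes, and nothing is read from their distance.

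**Figure D4:**
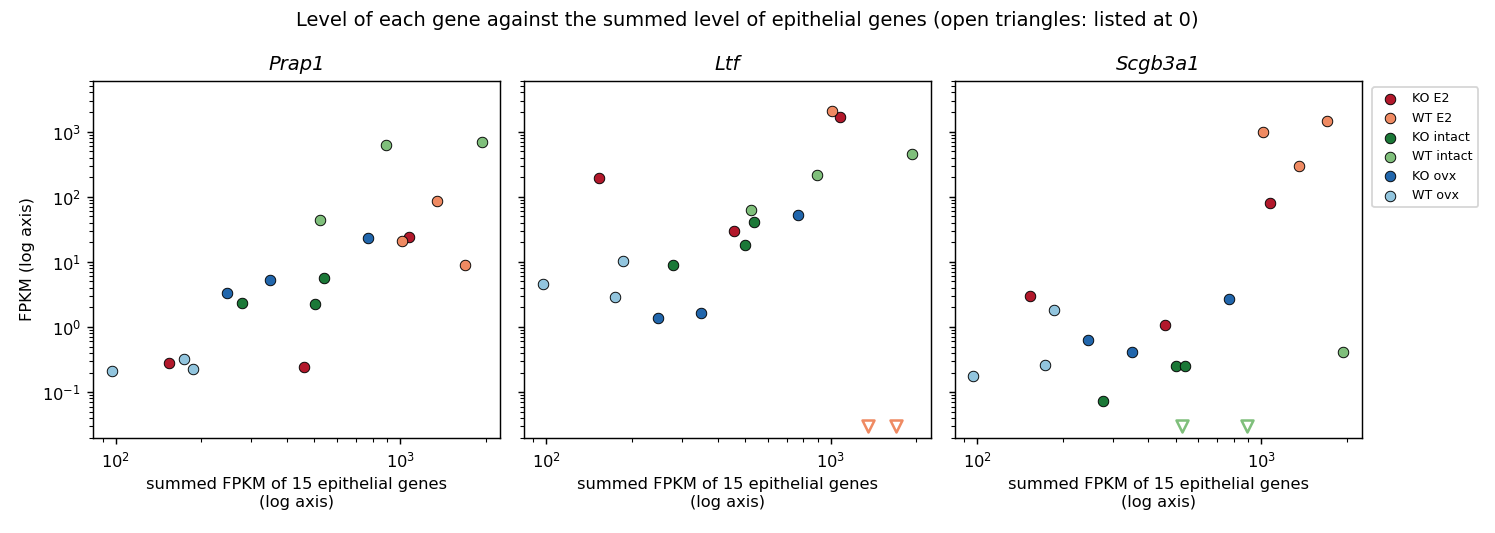
FPKM of Prap1, Ltf and Scgb3a1 (vertical, log axis) against the summed FPKM of 15 epithelial genes (horizontal, log axis), a point for each library, open triangles where the gene was listed at 0. WT intact libraries of Prap1 (44.6 to 688 FPKM) and WT E2 libraries of Scgb3a1 (301 to 1472 FPKM) are the values that chose these genes, and they lay at epithelial sums of 524 to 1936 FPKM and 1013 to 1696 FPKM.

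Neutrophil genes bear on Ltf, whose product neutrophils also store. Summed over 14 neutrophil genes, the level was 1486 to 14897 FPKM in KO E2 and 187 to 730 FPKM in WT E2 libraries. The WT E2 sums came mainly from S100a9, Ly6g and S100a8, at means of 174, 172 and 115 FPKM. The granule gene Ngp averaged 0.698 FPKM in WT E2 and 117 FPKM in KO E2 uteri. The neutrophil sum was 24.8 to 42.3 FPKM in KO intact, 35.7 to 202 FPKM in WT intact and 14.1 to 16.8 FPKM in WT ovx libraries. Most of the WT intact and WT ovx sums came from Ly6g, at means of 104 and 12.7 FPKM. The neutrophil genes Camp, Elane and Ctsg were listed at 0 in all WT intact libraries. Among KO ovx libraries the neutrophil sum was 240.2 FPKM in replicate 4 and 21.6 to 25.8 FPKM in the other libraries. KO ovx replicate 4 was thus high both in neutrophil genes and in Ltf. Under E2 the orders differed: KO E2 replicate 1 had the highest neutrophil sum, 14897 FPKM, with 192 FPKM of Ltf, while KO E2 replicate 2 had 1866 FPKM of neutrophil genes with 1665 FPKM of Ltf. Of 13 neutrophil genes tested, 13 rose with E2 in KO uteri, with a median of 2.89 against 0.07 over all genes. In WT uteri 3 of the 13 rose, with a median of 0.61 against 0.24, where 32.3% of all genes tested passed as higher. Under E2 10 were higher in KO than in WT, with a median of 2.73 against -0.05 over all genes. That count was 8 to 11 without each library in turn and 0 with only the E2 libraries in the fit. Camp, the cathelicidin gene of neutrophil granules, averaged 71.5 FPKM in KO E2 and 0.452 FPKM in WT E2 uteri. The part of neutrophils in the level of Ltf was not tested.

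**Figure D5:**
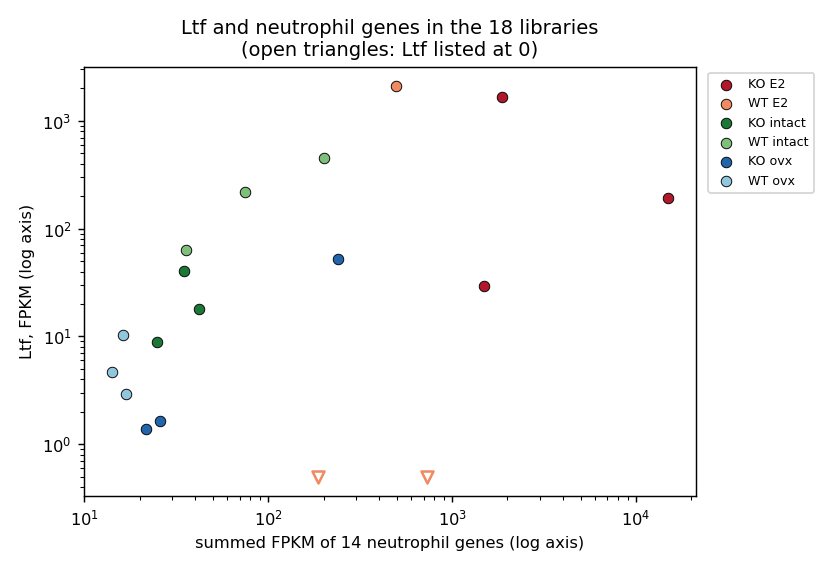
FPKM of Ltf (vertical, log axis) against the summed FPKM of 14 neutrophil genes (horizontal, log axis), a point for each library, with open triangles for the WT E2 libraries in which Ltf was listed at 0. KO E2 libraries had the highest neutrophil sums (1486 to 14897 FPKM), and their Ltf levels ran from 29.6 to 1665 FPKM.

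Other cell markers also differed between libraries. Adipocyte genes summed to 477, 4.99 and 3023 FPKM in KO E2 replicates 1, 2 and 3 and to 189 FPKM in KO ovx replicate 4, against at most 55.6 FPKM in WT E2 and 0.818 FPKM in WT ovx libraries. The oviduct and ciliated cell sum was highest in WT E2 replicate 1, at 160 FPKM. It was 19.6, 44.3 and 1.46 FPKM in WT intact replicates 1, 2 and 4, against 2.28 to 5.09 FPKM in KO intact libraries. Squamous genes summed to 25.6 to 160 FPKM in KO E2 and 69.6 to 145 FPKM in WT E2 libraries, and macrophage genes to 33.4 to 137 FPKM in KO E2 and 17.0 to 23.3 FPKM in WT E2 libraries. Smooth muscle genes summed to 493 to 1714 FPKM in KO intact and 73.4 to 462 FPKM in WT intact libraries, where their order was opposite to that of Prap1. With E2 in KO uteri 4 of 4 macrophage, 1 of 6 adipocyte and 1 of 3 squamous genes rose, and 2 of 9 smooth muscle genes fell. In WT uteri 1 of 4 macrophage, 3 of 3 squamous and 1 of 2 oviduct genes rose, and 1 of 9 smooth muscle genes fell. Over all genes tested 32.3% passed as higher with E2 in WT uteri, and 27.1% passed in either direction in KO uteri. The WT medians were 1.07 for macrophage, 3.17 for squamous, 1.69 for oviduct and -0.75 for smooth muscle genes, against 0.24 over all genes. The KO counts turned on single libraries. Adipocyte genes that rose numbered 6 without KO E2 replicate 2, 5 without KO ovx replicate 4 and 0 without any other library of these groups. Smooth muscle genes that fell numbered 7 without KO ovx replicate 4, 1 without KO E2 replicate 3 and 0 without any of the other libraries, and squamous genes that rose numbered 2 without KO E2 replicate 1, 1 without KO ovx replicate 4 and 0 without any of the others. In WT uteri the oviduct count was 0 to 1 and the macrophage count 1 to 2 without each library in turn. For intact against ovx 8 of 9 smooth muscle genes were called lower in WT uteri, with a median of -2.18 against 0.21 over all genes, and 0 of 9 in KO uteri. The WT count was 3 without WT intact replicate 4 and 4 without WT intact replicate 1 or any WT ovx library. Their part in the levels of the 3 genes was not tested.

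The listed relatives of the genes were mostly low, and the list may not hold every member of their families. Of 12 listed relatives of the transferrin and secretoglobin families 5 were in the table and 2 passed the filter. Trf, which encodes serum transferrin, the iron carrier related to lactoferrin, rose with E2 in both genotypes, by 3.61 ± 0.62 in KO uteri (adjusted p = 0.000696) and by 2.51 ± 0.62 in WT uteri (adjusted p = 0.00457). The secretoglobin gene Scgb1c1 rose with E2 in WT uteri by 2.64 ± 0.41 (adjusted p = 0.000239), to a mean of 6.49 FPKM, and it was lower in KO than in WT under E2, with a log2 difference of -2.12 ± 0.41 (adjusted p = 0.00545), at means of 0.650 FPKM in KO E2 and 6.49 FPKM in WT E2 uteri. The genotype call ended with only the E2 libraries in the fit, where 0 genes of the table were called. Its KO E2 libraries lay at 0 to 1.89 FPKM and its WT E2 libraries at 2.37 to 12.6 FPKM, without overlap. Scgb3a2, the closest relative of Scgb3a1 by name, was listed at 0 in all 18 libraries. Scgb1a1 and the melanotransferrin gene Mfi2 stayed below the filter.

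The wider list of uterine secretory products, without the 3 genes, answered to E2 in both genotypes. Of 21 tested, 13 rose and 0 fell with E2 in WT uteri (10 to 12 without each library in turn), with a median of 2.18 against 0.24 over all genes. In KO uteri 9 rose and 3 fell (7 to 10 and 2 to 3 without each library in turn), with a median of 1.41 against 0.07 over all genes. Complement C3 rose in both, by 4.72 ± 0.99 in KO uteri (adjusted p = 0.00301) and by 6.10 ± 0.99 in WT uteri (adjusted p = 0.000317). Spp1, which encodes the secreted adhesion protein osteopontin, rose by 5.95 ± 0.84 in KO and by 5.40 ± 0.84 in WT uteri. Pigr, the transporter of secretory antibodies, averaged 90.4 ± 140.3 FPKM in KO E2 and 22.6 ± 27.5 FPKM in KO ovx uteri (0.76 ± 1.13, adjusted p = 0.652), against 261 ± 41.3 FPKM in WT E2 and 2.23 ± 1.18 FPKM in WT ovx uteri (6.39 ± 1.13, adjusted p = 0.00054).

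Some secretory genes were called between the genotypes. Under E2 1 of the 21 tested was higher and 3 were lower in KO than in WT, with a median of -1.04 against -0.05 over all genes. Over all genes tested 8.49% passed in either direction. Without each library in turn 1 to 2 were higher and 1 to 5 lower. Without KO E2 replicate 2 and KO ovx replicate 4 the counts were 3 higher and 7 lower. Slpi, a secreted protease inhibitor, was 4.35 ± 0.89 higher in KO (adjusted p = 0.00729), opposite in sign to Scgb3a1, at means of 460 ± 410 FPKM in KO E2 and 12.3 ± 5.59 FPKM in WT E2 uteri (SD, n = 3 each). Dmbt1, a mucosal scavenger receptor protein, was lower in KO, with a log2 difference of -2.60 ± 0.28 (adjusted p = 0.000224), at means of 0.204 FPKM in KO E2 and 6.87 FPKM in WT E2 uteri. Muc1 (-3.21) and Sult1d1 (-2.43) were lower too, but the call of Muc1 ended without any WT E2 library or without KO E2 replicate 1 or 3 (adjusted p up to 0.149), and that of Sult1d1 without any of the 6 libraries (up to 0.200). With only the E2 libraries in the fit 0 genes of the table were called between the genotypes, so the calls of Slpi and Dmbt1 ended there too. In ovx uteri 2 were higher and 1 was lower in KO, with a median of 0.28 against 0.09. There the lower call ended without each library in turn, and the higher calls numbered 0 without WT ovx replicate 1 or 3 or KO ovx replicate 1, 1 when KO ovx replicate 4 was left out and 3 when KO ovx replicate 2 was. In intact uteri 1 was higher and 0 lower, with a median of -0.03 against -0.04. The intact gene was Clu, higher by 2.97 ± 0.71 (adjusted p = 0.0423), whose call ended without any library but KO intact replicate 1 (adjusted p up to 0.204). Intact against ovx gave 3 higher and 3 lower in KO uteri and 7 higher and 0 lower in WT uteri, with medians of 0.21 against 0.09 and of 0.89 against 0.21. Without each library in turn the intact counts ran from 1 to 4 and 2 to 3 in KO uteri and from 3 to 8 and 0 to 1 in WT uteri.

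The receptors and known targets of estradiol gave a second frame. Esr1, the estrogen receptor gene, fell with E2 in both genotypes, with log2 differences of -2.27 ± 0.33 in KO uteri (adjusted p = 0.000152) and -1.20 ± 0.33 in WT uteri (adjusted p = 0.00786), and under E2 it was lower in KO than in WT, at 1.27 ± 0.688 against 5.99 ± 3.64 FPKM (SD, n = 3 each; adjusted p = 0.00950). The progesterone receptor gene Pgr had 2.30 ± 0.805 FPKM in KO E2 and 14.04 ± 9.10 FPKM in WT E2 uteri (SD, n = 3 each), a log2 difference of -2.05 ± 0.41 (adjusted p = 0.00652). With only the E2 libraries in the fit both genotype calls ended, since 0 genes were called. Of 17 estrogen response genes tested, 7 rose and 2 fell with E2 in KO uteri and 9 rose and 1 fell in WT uteri, with medians of 1.45 against 0.07 and of 2.38 against 0.24 over all genes. The response list was lower in KO than in WT under E2 in 4 genes and higher in 0, with a median of -1.90 against -0.05 over all genes; without each library in turn 1 to 6 were lower and 0 to 2 higher, and with only the E2 libraries in the fit the count was 0 each way. For intact against ovx 3 were higher and 3 lower in KO uteri and 9 were higher and 2 lower in WT uteri, with medians of 1.36 against 0.09 and of 2.87 against 0.21 over all genes. Without each library in turn these counts were 3 to 5 and 1 to 2 in KO uteri and 6 to 11 and 2 in WT uteri. In ovx uteri 1 was higher and 0 lower in KO than in WT, the creatine kinase gene Ckb, whose call ended without each of the 6 ovx libraries in turn (adjusted p = 0.0502 to 0.160). In intact uteri 1 of the 17 was higher and 1 lower in KO, and without each library in turn 0 to 1 were higher and 1 to 3 lower. The lower gene was Fxyd4, a sodium pump regulator, at 0.747 FPKM in KO intact and 86.1 FPKM in WT intact uteri on average (-5.60 ± 0.77, adjusted p = 0.00354).

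Genes with the pattern most like each of the 3 were found by Pearson's r of log2(FPKM + 1) over libraries that share 6 groups, as a description. Nearest to Prap1 over 18 libraries were the alpha-1-antitrypsin genes Serpina1d (r = 0.915), Serpina1b, Serpina1c, Serpina1e and Serpina1a (each 0.912), near-identical paralogs between which reads cannot be assigned with certainty. Serpina1d had 0.734, 0.460 and 0.393 FPKM in KO intact replicates 1, 3 and 4, against 31.9, 65.4 and 142 FPKM in WT intact replicates 1, 2 and 4. Nearest to Scgb3a1 were the carboxylate transporter gene Slc13a2 (r = 0.989), the inflammasome gene Nlrp6 (0.979), A930005I04Rik (0.979), the lactoperoxidase gene Lpo (0.977) and the oxidase organizer gene Noxo1 (0.972). By ranks (Spearman's rho) the values for Scgb3a1 were lower, at 0.900, 0.650, 0.811, 0.726 and 0.668 in the same order. For Prap1 the rho was 0.771 with Serpina1d and 0.769 with the other Serpina1 genes. Lpo, whose product is a secreted antimicrobial peroxidase, had 2.79, 22.1 and 0.180 FPKM in KO E2 replicates 1, 2 and 3, against 16.0, 36.6 and 85.8 FPKM in WT E2 replicates 1, 2 and 5. For Ltf over all libraries the nearest were LOC100504625 (0.991), Irf1 (0.767), LOC100503658, Rpl32 and Gm12250 (0.710), and over the 16 libraries without listed zeros they were LOC100504625 (0.993), 1300017J02Rik (0.966), the complement gene Cfb (0.958), Pglyrp1 (0.950) and Sprr2j-ps (0.943). In those 16 libraries r of the deviations from group means was 0.556 for 1300017J02Rik, 0.531 for Cfb, 0.605 for Pglyrp1 and 0.526 for Sprr2j-ps. Pglyrp1, which encodes a secreted protein that binds bacterial peptidoglycan, had 177, 856 and 24.6 FPKM in KO E2 replicates 1, 2 and 3. In WT E2 replicates 1, 2 and 5 it had 993, 1163 and 1410 FPKM, so the libraries in which Ltf was listed at 0 were not low for this neighbour in pattern.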

How the data were processed

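The samples were 18 stranded, poly(A)-selected RNA libraries of mouse uterus in 6 groups of 3. The deposited values are FPKM, for which the submitters' processing notes name Cufflinks 2.0.2 and Cuffdiff as the authors' tools. The aligner, annotation and genome build are not given in the sources used here. Gene positions in the table overlapped GRCm38.p6 positions for 12.3% of 19997 matched symbols, so they are on another build. FPKM hold no read counts, and no counting intervals are given.

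Values were analysed as log2(FPKM + 1), a scale that understates the change of low genes. Genes with at least 1 FPKM in at least 3 libraries were tested, 13898 in all. The model of limma 3.58.1 (R 4.3.3, eBayes with a trend) took 18 libraries and gave each group its own mean, two-sided, with Benjamini-Hochberg adjustment over all genes tested in each comparison and a threshold of 0.05. Every adjusted p in the text is from limma. The procedure was first tested on simulated data.

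The genes and the 10 lists (secretory products, transferrin and secretoglobin relatives, estrogen response, and 7 cell type lists) were chosen with earlier results of these data known. From each list at most the 4 called genes of largest change per comparison, and averaging 5 FPKM or more in one of the groups, were to be named, besides all relatives, Tsc2, Esr1, Pgr and the 5 genes nearest in pattern. Genes named outside this rule were chosen after their values were seen. Libraries were put into 4 sets, a number fixed by the procedure, by the ratios of values up to 0.05 FPKM within 0.02 log2. The title of 1 WT intact library holds a compound number, read as replicate 4. Alternatives were a pseudocount of 0.1 FPKM, no filter, median-ratio and quantile scaling, only the groups compared, a replicate block, a set term and leaving out libraries. Taking the listed zeros of Ltf as missing and leaving out the 2 KO libraries that stand apart were added after the data were seen. Figures were drawn with matplotlib 3.10.9 in Python 3.11.15.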

Additional observations from a re-analysis of the deposited data

Results flagged for a closer look

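Some effects had opposite directions in 2 settings, with every library of a group on one side in each, and none of these differences was tested. The search covered only Prap1, Ltf, Scgb3a1 and genes named from the secretory, relatives and estrogen response lists. Those list genes had already been called for large changes in these data. The share of all genes with such opposite effects was not computed, so nothing is read from their number. For Prap1 the log2 difference of KO from WT was -6.02 in intact and 2.80 in ovx uteri, -8.82 apart, and the intact difference is the one that chose the gene. Sult1d1, a sulfotransferase gene, gave -2.43 for KO from WT under E2 and 3.18 in ovx uteri. Its response to E2 was -4.22 in KO and 1.4 in WT uteri, and both pairs were -5.61 apart. Its difference of intact from ovx was -3.29 in KO and 1.65 in WT uteri, -4.93 apart. Muc1, a mucin gene, gave -3.21 for KO from WT under E2 and 1.05 in ovx uteri, -4.27 apart. Wfdc2, a secreted protease inhibitor gene, gave -1.71 for KO from WT in intact and 2.23 in ovx uteri, and its difference of intact from ovx was -2.35 in KO and 1.59 in WT uteri, both -3.94 apart. Fxyd4 gave -3.10 for intact from ovx in KO and 3.11 in WT uteri, -6.21 apart. Scgb1c1 gave 0.37 for KO from WT in intact uteri and -2.12 under E2, 2.49 apart. Padi4, a peptidylarginine deiminase gene, gave -1.90 for KO from WT under E2 and 0.44 in ovx uteri, -2.34 apart.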

How the results depend on the processing

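The rises of Prap1 and Scgb3a1 with E2 and the higher Prap1 of intact uteri, all in WT, kept their direction and call in every alternative run. The alternatives reused the WT E2 libraries that entered the choice of Scgb3a1 and the WT intact libraries that entered that of Prap1. Those kept calls are therefore not independent of the choice. Of the other values of the 3 genes, Ltf moved most. With Ltf missing at its listed zeros it gave 4.94 (KO) and 8.38 (WT) for E2 against ovx, 4.88 for WT intact against ovx, all then called, and -3.30 for KO against WT under E2. A pseudocount of 0.1 FPKM gave -0.94 for Ltf in WT E2 against ovx, -0.040 for Ltf in KO against WT ovx and 0.69 for Scgb3a1 in KO against WT intact. With only the groups compared, Ltf in WT intact against ovx (4.88) and Prap1 in KO against WT ovx (2.80) were called. Quantile scaling gave -0.24 for Ltf in KO against WT ovx and -0.031 for Scgb3a1 in KO against WT intact. Replicate numbers did not pair the libraries (correlations of deviations -0.18 to 0.34). The replicate block gave 5.98 for Ltf in KO E2 against ovx (adjusted p = 0.0479, limma), -0.90 for Ltf and -0.010 for Scgb3a1 in KO against WT ovx and 0.50 for Scgb3a1 in KO against WT intact, with 399 (ovx), 545 (intact) and 384 (E2) genes called between genotypes. Without both KO libraries that stand apart, KO against WT ovx gave -1.33 for Ltf and -0.086 for Scgb3a1. Genes called numbered 3767 for KO E2 against ovx (1786 with only the groups compared), 2206 for KO intact against ovx (3673 with quantile scaling), and between genotypes 753 in ovx (1978 quantile, 429 with a set term, 399 without the KO libraries apart), 303 in intact (535 quantile, 25 only groups compared) and 1180 in E2 uteri (0 only groups compared, 2449 without the KO libraries apart). Leaving out each library in turn gave 2370 to 4326, 1167 to 2700, 149 to 912, 66 to 674 and 517 to 2235 for these 5 counts. It gave 0.51 to 3.15 for Scgb3a1 in KO E2 against ovx, -2.66 to 2.86 for Ltf in WT E2 against ovx, and for KO against WT ovx -1.33 to 0.92 for Ltf and -0.086 to 0.75 for Scgb3a1. Scaling moved the median of all genes by up to -0.29 (quantile, WT E2 against ovx). The share of calls that were higher was 58.7% in KO E2 against ovx (39.5% quantile), 67.9% in WT E2 against ovx (57.4% median-ratio, 43.6% quantile), 65.9% in WT intact against ovx (55.4% and 52.6%) and 85.4% in KO against WT ovx (70.8% and 51.3%). Of the calls of list genes, 1091 values kept direction and call over the alternatives, 204 lost the call and 0 reversed. The causes were not tested. A set term could not be fitted for intact against ovx.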
